A study of Rattus norvegicus with 8 samples.

Results

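The heat shock chaperone genes described here were chosen by name, as the probe sets whose platform annotation gave exactly 1 of 10 listed genes: Hspa1a, Hspa1b, Hspa8, Hsph1, Hspb1, Hspd1, Hspe1, Dnajb1, Hsp90aa1 and Hspa4. A probe set is the group of short probes on an Affymetrix array that reports 1 transcript. Values could be given for 7 of the 10 genes, through 9 of the 31099 probe sets on the array. Hspa1b, Hspa8 and Hsp90aa1 were named only on probe sets that also named another gene, so no value is given for them. RNA came from granulosa cells, which line the ovarian follicle and nurse the oocyte, on 8 one-colour whole-genome rat arrays. In the study's design, immature rats received the gonadotropin eCG, which drives follicle growth, and 24 h later either an anti-eCG antibody, which set off follicular atresia, or pre-immune serum, which let follicles go on developing. Every animal had therefore received eCG. Oocytes of the serum group had normal developmental competence, with 30 to 50% reaching term after embryo transfer, and those of the antibody group had poor competence, with 0%. The sample labels gave no treatment, only a number, so no array could be assigned to serum or antibody and no treatment comparison was made. Arrays are called by their label numbers, and values per array follow the order 2074, 2076, 2194, 2195, 2196, 2197, 2198 and 2199.

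Heat shock proteins are molecular chaperones that bind unfolded proteins and help them fold, refold or be degraded. Stress such as heat, oxidation or proteasome failure activates the transcription factor HSF1, which binds heat shock elements, short inverted repeats in the promoters of its target genes. Some chaperones are scarce in resting cells and are made on stress, while others are abundant at all times. Of the genes with values, Hspa1a (an inducible cytosolic HSP70), Dnajb1 (the J protein that loads substrates onto HSP70), Hspb1 (the small heat shock protein HSP27, a holdase) and Hsph1 (HSP110, a nucleotide exchange factor of HSP70) were put in the stress-inducible class. Hspa4 (an HSP110-type exchange factor), Hspd1 (the mitochondrial chaperonin HSP60) and Hspe1 (its co-chaperonin HSP10) were put in the constitutive class. That division is a textbook one, and several genes of the constitutive class are also raised by stress.

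Promoter windows of the 7 genes were read to show which of them carry the letters of a heat shock element next to the annotated start. The windows, from RefSeq on the GRCr8 build, span 250 bases before and 50 bases after the start, and all 7 genes were matched by symbol. The motifs searched were GAANNTTC and TTCNNGAA, which read the same on both strands and overlap where units alternate. At least 1 of these motifs stood in the windows of 5 of the 7 genes, against 15.9% of all 33469 promoter windows in the table. At least 3 alternating units in a row stood in the windows of Hsph1, Hspd1 and Hspe1, that is 3 of 7 genes, against 0.798% of all windows. No motif was found in the windows of Hspa1a and Hspa4, which says only that these letters are not in these windows. The 250 bases before the start are printed below, 5′ to 3′ on the gene's strand, with the fixed letters of each motif in capitals, for 4 of the 5 genes that carry it and, as the gene whose signal varied most, for Hspa1a. Hspd1 is not printed, because its only motifs are bases that also lie in the Hspe1 sequence.
Hspe1, chr9:64084077-64084326, plus strand: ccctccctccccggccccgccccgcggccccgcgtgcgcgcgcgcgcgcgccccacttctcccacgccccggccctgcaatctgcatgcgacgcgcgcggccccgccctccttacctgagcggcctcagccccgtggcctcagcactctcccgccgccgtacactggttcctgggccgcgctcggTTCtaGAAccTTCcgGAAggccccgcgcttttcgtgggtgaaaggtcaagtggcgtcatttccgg
Hsph1, chr12:10427118-10427367, plus strand: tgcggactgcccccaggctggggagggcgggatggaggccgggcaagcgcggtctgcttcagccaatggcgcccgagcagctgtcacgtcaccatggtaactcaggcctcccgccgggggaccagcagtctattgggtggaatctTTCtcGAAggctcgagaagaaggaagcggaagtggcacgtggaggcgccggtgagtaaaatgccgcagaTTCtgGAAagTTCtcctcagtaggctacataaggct
Hspb1, chr12:26432302-26432551, minus strand: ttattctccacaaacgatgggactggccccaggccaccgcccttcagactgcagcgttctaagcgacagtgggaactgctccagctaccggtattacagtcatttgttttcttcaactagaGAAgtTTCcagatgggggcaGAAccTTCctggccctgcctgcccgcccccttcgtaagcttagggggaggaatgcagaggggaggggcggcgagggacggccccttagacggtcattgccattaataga
Dnajb1, chr19:41431142-41431391, minus strand: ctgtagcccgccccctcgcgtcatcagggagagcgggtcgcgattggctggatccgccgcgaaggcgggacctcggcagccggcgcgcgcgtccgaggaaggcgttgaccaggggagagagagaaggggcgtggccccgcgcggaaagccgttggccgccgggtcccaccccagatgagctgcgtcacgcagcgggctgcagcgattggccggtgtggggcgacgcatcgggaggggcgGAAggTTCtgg
Hspa1a, chr20:3859506-3859755, plus strand: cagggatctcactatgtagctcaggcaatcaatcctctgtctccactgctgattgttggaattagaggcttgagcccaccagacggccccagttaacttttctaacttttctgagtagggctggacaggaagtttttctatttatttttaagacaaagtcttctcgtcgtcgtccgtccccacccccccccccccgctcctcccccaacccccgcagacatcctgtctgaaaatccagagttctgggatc

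Hspd1 and Hspe1 lie head to head on chromosome 9, with annotated starts 290 bases apart, and their windows share 211 bases. The same 18 bases, chr9:64084262-64084279, hold the only motifs in either window. On the Hspe1 strand they read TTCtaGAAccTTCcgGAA and end 48 bases before the Hspe1 start, and on the Hspd1 strand they read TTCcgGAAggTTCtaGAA and begin 242 bases before the Hspd1 start. Such a run of 4 alternating units was found in 10 of the 33469 windows (0.0299%). In Hsph1 the run of 3 units began 36 bases before the start and another motif began 105 bases before it. Hspb1 had motifs beginning 129 and 109 bases before its start, and Dnajb1 had 1 beginning 11 bases before the start and 1 beginning 17 bases after it, outside the bases printed.

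**Figure D1:**
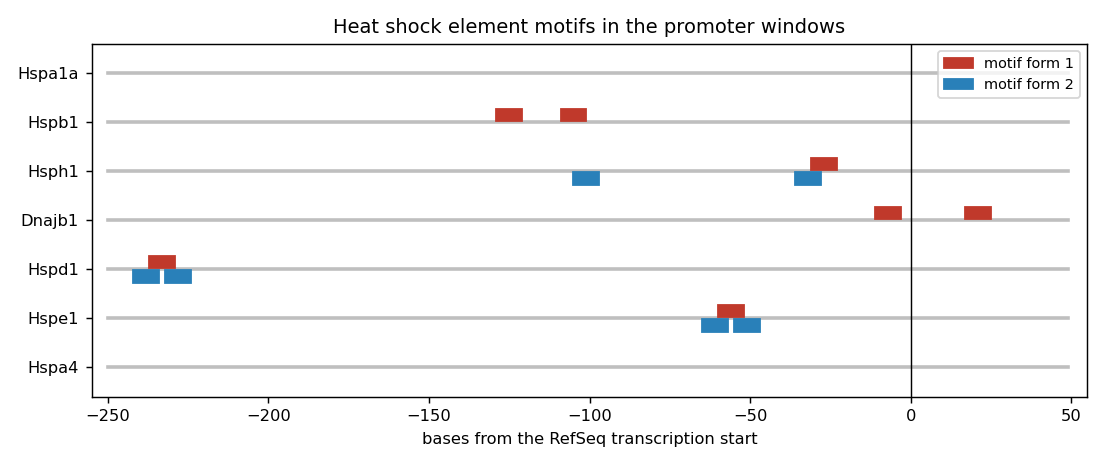
Position of heat shock element motifs in the promoter window of each gene with values, in bases from the RefSeq transcription start, where form 1 is GAANNTTC and form 2 is TTCNNGAA and grey lines are the windows. Hspd1 and Hspe1 show the same overlapping units far from the Hspd1 start and near the Hspe1 start, and the lines of Hspa1a and Hspa4 carry none.

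Values below are signals scaled to a common level across arrays, in arbitrary units. They were set against a floor, the array's 40th percentile, which lay between 273 and 471 over arrays and was highest on array 2195. The spread of a gene is its inner range, the second highest over the second lowest array, so that no result rests on the highest or lowest array alone. A gene counted as measured when it exceeded its array's median on at least 2 arrays, which 10513 genes did, all 7 chaperone genes among them. Levels are not compared between genes, because probe sets differ in brightness.

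Among the stress-inducible genes Hspa1a varied most. Its signal was 1150.1 on array 2074, 864 on 2076, 779 on 2194, 226 on 2195, 684 on 2196, 3109 on 2197, 7519 on 2198 and 1582 on 2199. Array 2198 stood highest, followed by 2197, and the value on 2195 lay under that array's floor, so it is only known to be low. The inner range was 4.54-fold, wider than in 99.3% of measured genes, and the full range was at least 15.97-fold. Leaving out array 2197 or array 2198 reduced the inner range to 2.32-fold. Rat Hspa1a and Hspa1b are near-identical copies, so signal from Hspa1b on the Hspa1a probe set was not separated. In bulk RNA such as this, fewer cells of a type and less RNA per cell cannot be told apart.

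Hspb1 also varied more than most genes. It gave 4727 on array 2074, 3969 on 2076, 1943 on 2194, 3728 on 2195, 1414 on 2196, 6133 on 2197, 3631 on 2198 and 1364 on 2199. Arrays 2194, 2196 and 2199, at 1943 or lower, lay apart from the other 5, at 3631 or higher. The inner range was 3.34-fold, wider than in 96.8% of measured genes. Array 2197 was the highest for Hspb1 and the second highest for Hspa1a, but array 2195, the lowest for Hspa1a, was in the middle for Hspb1.

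Dnajb1 and Hsph1, each read by a pair of probe sets, varied less. The brighter Dnajb1 probe set gave 15146 on array 2074, 19913 on 2076, 34389 on 2194, 28126 on 2195, 22327 on 2196, 30361 on 2197, 25678 on 2198 and 33097 on 2199. Arrays 2074 and 2076 were thus the lowest pair, the inner range was 1.66-fold and 45.1% of measured genes were narrower. The dimmer Dnajb1 probe set fell to 430 on array 2196 from 755 to 1069 elsewhere, with an inner range of 1.32-fold, and did not show the low values on arrays 2074 and 2076, where it gave 942 and 902. The brighter Hsph1 probe set gave 9856 on array 2074, 14340.03 on 2076, 16041 on 2194, 17895 on 2195, 13598 on 2196, 13534 on 2197, 12246 on 2198 and 12455 on 2199. Its inner range of 1.31-fold was wider than in only 9.87% of measured genes. The dimmer Hsph1 probe set behaved differently, with signals of 407 (array 2197) and 502 (array 2199) where the remaining arrays gave 882 to 1350.1, and had an inner range of 2.60-fold. The spread of Hsph1 therefore depended on the probe set.

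In the constitutive class the mitochondrial chaperonin genes were nearly level on 7 arrays and high on 1. Hspd1 gave 165829 on array 2074, 178123 on 2076, 158598 on 2194, 283341 on 2195, 187849 on 2196, 186394 on 2197, 189385 on 2198 and 180370.6 on 2199. Hspe1 gave 160735 on array 2074, 172214 on 2076, 165336 on 2194, 427621 on 2195, 199672 on 2196, 169637 on 2197, 205892 on 2198 and 162069 on 2199. Array 2195 was the highest for both genes, 1.496 times the next array for Hspd1 and 2.08 times for Hspe1. The inner range, which leaves that array out, was 1.14-fold for Hspd1 and 1.27-fold for Hspe1, and 0.837% and 6.84% of measured genes were narrower. Those shares were taken over measured genes of every brightness, whereas Hspd1 and Hspe1 are among the brightest 1%. The part of brightness in their narrow range was not tested. On array 2195 the brightest 1% of measured genes had a median log2 distance of 0.25 from their own medians over arrays, the highest of the 8 arrays. Hspd1 stood at 0.63 there, which 18 of the 104 other brightest genes reached, and Hspe1 at 1.32, which 0 of 104 reached. The part of the array-wide brightness in the chaperonin values was not tested.

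Hspa4 did not follow the chaperonin genes. It gave 5139 on array 2074, 4513 on 2076, 4749 on 2194, 3001 on 2195, 2042 on 2196, 2533 on 2197, 5708 on 2198 and 1909 on 2199. Arrays 2074, 2076, 2194 and 2198 lay at 4513 or higher and the other 4 at 3001 or lower. The inner range was 2.52-fold, wider than in 88.8% of measured genes.

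**Figure D2:**
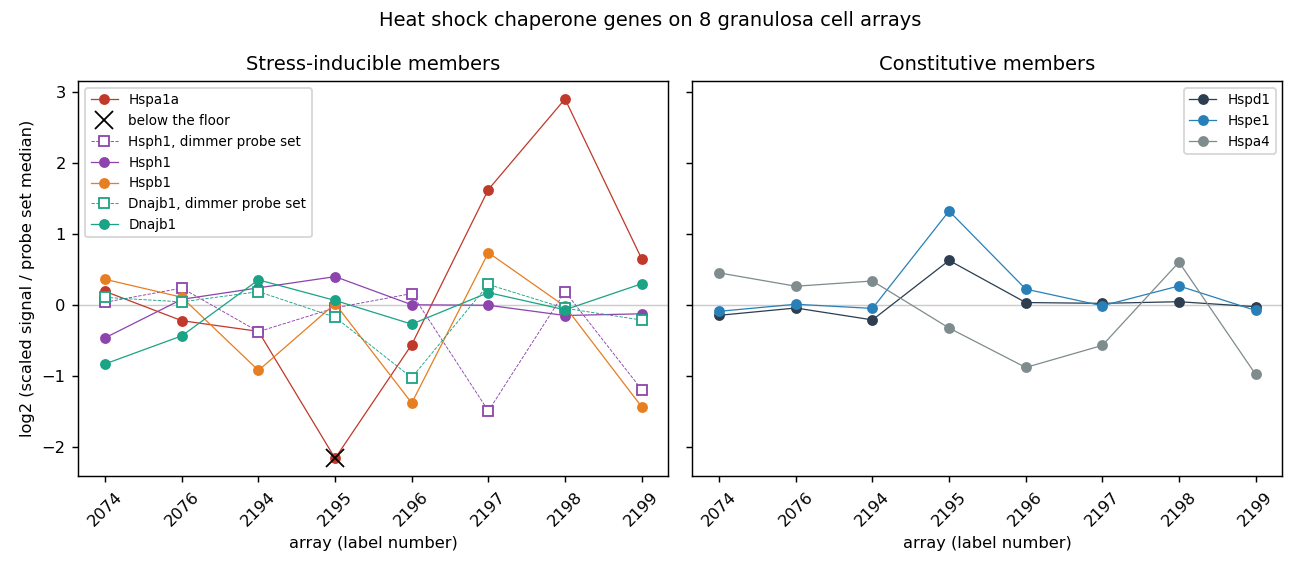
Log2 ratio of each probe set's scaled signal to its own median over the 8 arrays, by array label number, for stress-inducible genes (left) and constitutive genes (right). Filled circles are the brighter probe set of a gene, open squares the dimmer one, thin lines only join the points of a probe set, and the cross marks a value under the floor. Hspa1a is highest on array 2198 and under the floor on array 2195, where Hspe1 and Hspd1 are highest.

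The chaperone genes lay on both sides of the typical measured gene. Of the 7 genes, 3 (Hspa1a, Hspb1 and Hspa4) spread 2-fold or more, against 29.9% of all 10513 measured genes. By class these were 2 of the 4 stress-inducible and 1 of the 3 constitutive genes. The median log2 inner range was 0.73 over the 7 genes, 1.24 over the stress-inducible and 0.35 over the constitutive genes, beside 0.78 over all measured genes. With so few genes per class, and Dnajb1 and Hsph1 narrower than Hspa4, the classes overlapped. By the full range the class medians differed by 0.26 on the log2 scale, against 0.89 by the inner range, because the full range includes the high chaperonin values on array 2195. Over arrays 2194 to 2199 alone the same 3 genes reached at least 2-fold, with 4.54-fold for Hspa1a, 2.64-fold for Hspb1 and 2.33-fold for Hspa4, against 11.6% of all measured genes. Array 2195 was the highest for 3 of the 7 genes (Hsph1, Hspd1 and Hspe1), beside 23.6% of all measured genes. That share was taken with values under the floor set to it, and the floor was highest on array 2195. A value that stood apart on 1 array (Dixon's ratio over its 95% critical value for 8 arrays) was found for the main probe set of 2 of the 7, Hspd1 and Hspe1, beside 5.97% of all measured genes.

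Few signs of a shared pattern over the 8 arrays were found among the genes with values. In 10 relations examined, Hspa1a was set against each of the 6 other genes with values, against the immediate-early genes Fos and Egr1, which respond within minutes to a stimulus, and against the 3′ to 5′ signal ratio of the Gapdh control probe sets, which rises when RNA is degraded. The last of the 10 set Hspd1 against Hspe1. Of these, 1 passed an adjusted p of 0.05 on Pearson's r. The labels do not say whether the arrays came from separate animals. These p-values treat the arrays as exchangeable, that is without groups among them, which treatment groups or other groupings of arrays would break. They refer to these arrays only, and a difference between treatments and other sources of spread cannot be told apart in them. For Hspa1a with Hspb1 Pearson's r was 0.31 (exact permutation p = 0.461, adjusted p = 0.878) and Spearman's rho 0.21 (p = 0.619, adjusted p = 0.935). Without arrays 2198 and 2197, the ones farthest from the Hspa1a median, r was -0.23. For Hspa1a with Dnajb1 r was 0.12 (exact permutation p = 0.772, adjusted p = 0.878), rho was 0.05 (p = 0.935, adjusted p = 0.935) and r without that pair of arrays was -0.08. Hspa1a with Hsph1 had the most negative r and rho over 8 arrays, r = -0.48 (exact permutation p = 0.231, adjusted p = 0.878), rho = -0.76 (p = 0.0368, adjusted p = 0.184), and the adjusted values missed the threshold. Without arrays 2198 and 2197 its r was -0.75. Against Hspd1, Hspe1 and Hspa4 the r of Hspa1a was -0.26, -0.34 and 0.24, with exact permutation p of 0.499, 0.354 and 0.576 (adjusted p = 0.878 each) and rho of -0.05, -0.29 and 0.24 (p = 0.935, 0.501 and 0.582, adjusted p = 0.935 each). Without the same pair of arrays these r were -0.67, -0.79 and -0.08. Without array 2195, where Hspa1a was under the floor and the chaperonin genes highest, r turned to 0.51 with Hspd1 and 0.37 with Hspe1, so the sign of both rested on that array, and without array 2198 r with Hspa4 turned to -0.23. Over arrays 2194 to 2199 alone 0 of the 10 relations passed, and there r was -0.76 with Hsph1 and 0.43 with Hspb1.

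Hspd1 and Hspe1, the neighbours that share the 18 bases printed above, were the relation that passed. Pearson's r was 0.964 (exact permutation p = 0.00233, adjusted p = 0.0233) and Spearman's rho was 0.83 (p = 0.0154, adjusted p = 0.154). Without arrays 2195 and 2194, the farthest from the Hspd1 median, r was 0.73 (exact permutation p = 0.0875), so the strength of the relation rested on array 2195. Without array 2195 alone r was 0.67 (adjusted p = 0.758). The adjusted p also missed 0.05 when array 2074 (0.0853), 2076 (0.0516), 2196 (0.0774) or 2198 (0.0526) was left out, with r between 0.960 and 0.963, so 3 of the 8 omissions kept the call. After quantile normalization, which gives every array the same set of signals, r was 0.03 (adjusted p = 0.945). By that step a gene at nearly the same rank on every array is given nearly the same signal. The inner range of Hspe1 was then 1.04-fold, against 1.27-fold before, and that of Hspd1 1.15-fold. With so little spread left in Hspe1, the low r cannot decide whether the relation holds. Over arrays 2194 to 2199 r was 0.961 and rho 0.943, with exact permutation p of 0.0111 and 0.0167 and adjusted p of 0.111 and 0.167. Ranked by r with Hspd1 among the 10512 other measured genes, Hspe1 was number 5 over 8 arrays and number 347 without array 2195.

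**Figure D3:**
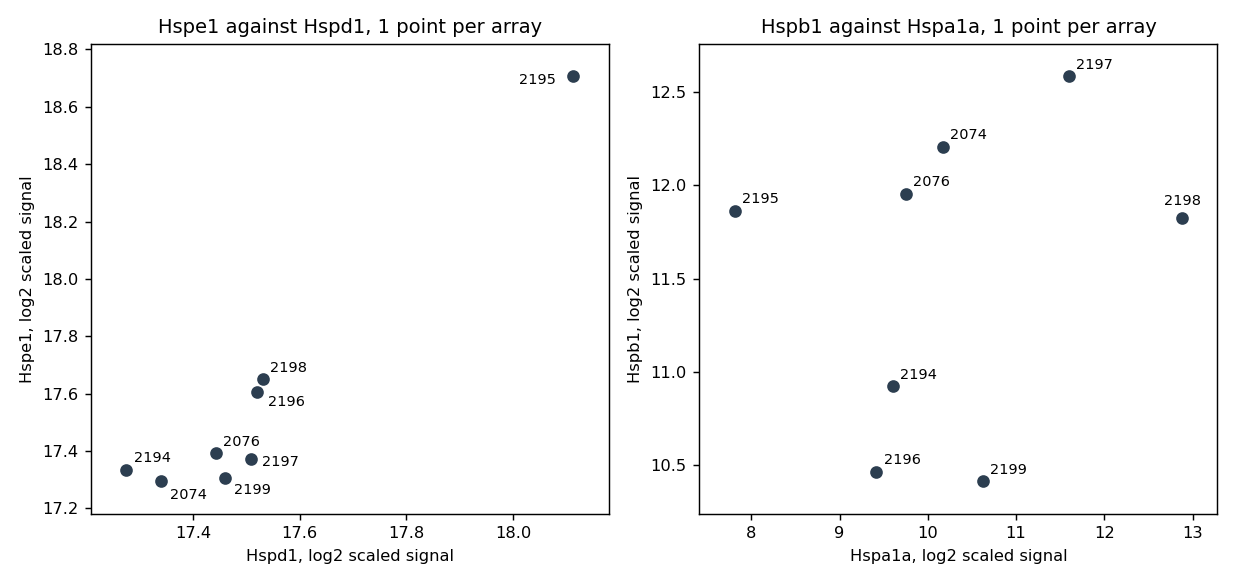
Log2 scaled signal of Hspe1 against Hspd1 (left) and of Hspb1 against Hspa1a (right), with 1 point per array labelled by number. On the left array 2195 lies far from a tight group of 7 arrays, and on the right r is 0.31.

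The immediate-early genes Fos and Egr1 and a measure of RNA quality were set beside Hspa1a. The labels do not say what stimulus the immediate-early genes answered, and handling and treatment cannot be told apart in them. Egr1 ran from 12421 on array 2074 to 91057 on array 2076. Fos gave 1347 on array 2074, 3623 on 2076, 3362 on 2194, 2135 on 2195, 6505 on 2196, 4084 on 2197, 3606 on 2198 and 2674 on 2199, highest on array 2196, where Hspa1a was low. The r of Hspa1a was 0.13 with Fos (exact permutation p = 0.757, adjusted p = 0.878) and 0.01 with Egr1 (exact permutation p = 0.989, adjusted p = 0.989). Spearman's rho was 0.10 with Fos (p = 0.840, adjusted p = 0.935) and -0.12 with Egr1 (p = 0.793, adjusted p = 0.935), and r without arrays 2198 and 2197 was -0.26 and -0.39. The Gapdh 3′ to 5′ ratio ran from 5.27 on array 2198 to 8.81 on array 2197, and was 7.99 on array 2199. Its log2 value had r = 0.12 with Hspa1a (exact permutation p = 0.790, adjusted p = 0.878) and rho = 0.26 (p = 0.536, adjusted p = 0.935). Single arrays moved this value in both directions. Without array 2198, with the highest Hspa1a and the lowest ratio, r was 0.93 (exact permutation test over 7 arrays, adjusted p = 0.0218), and without 2198 and 2197 it was 0.85. Without array 2197, with the highest ratio, r was -0.23 (adjusted p = 0.922), and without array 2195 it was 0.0085 (adjusted p = 0.984). On every array the ratio was 5.27 or higher, so the 3′ signal of Gapdh exceeded its 5′ signal throughout. The part of RNA quality in the values of Hspa1a, or of the other probe sets, was not tested.

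The measured genes most like Hspa1a over the 8 arrays, by Pearson's r, were Polr2j (0.937), Ldaf1 (0.933), Aldh6a1 (0.915), Tmem254 (0.904) and Ccdc17 (0.895). None of the other listed chaperone genes with values was near the top: they ranked from 1996 (Hspb1) to 9498 (Hsph1) of 10512. Over arrays 2194 to 2199 those 5 genes ranked between 3 (Tmem254) and 44 (Ccdc17). They are the extreme of a large search and are given as a description.

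The wider chaperone network was 54 further genes of the folding machinery, of which 50 were measured. Over the 8 arrays, with genes counted as measured in the way given above, it spread about as much as genes at large. A spread of 2-fold or more was seen for 13 of the 50, against 29.9% of all measured genes, and the median log2 inner range was 0.70, beside 0.78 over all measured genes. Much of that spread set arrays 2074 and 2076 against the rest. In 20 of the 50 both arrays lay above the other 6, against 13.6% of all measured genes, and in 8 both lay below, against 14.5%. With signals as deposited the counts were 22 above, against 16.1% of all measured genes, and 8 below, against 11.9%. After quantile normalization they were 21 above, against 15.3%, and 8 below, against 11.3%. Of the 7 listed chaperone genes 0 had both arrays above and 1, Dnajb1, had both below. Over arrays 2194 to 2199 alone, 2 of the 50 reached at least 2-fold, Bag2 (2.16-fold) and Hspa4l (2.14-fold), against 11.6% of all measured genes.

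Among regulators, Hsf2, a heat shock transcription factor, was low on arrays 2074 (4274) and 2076 (4254), while the rest gave 9537 to 11271. Its inner range was 2.64-fold, 1.18-fold without either of that pair, and its next probe set had 2.38-fold. Hsbp1, which binds HSF1 and restrains it, had 1.79-fold, and Hsf1 itself 1.53-fold, from 573 on array 2194 to 1132 on array 2195. In the HSP90 class, Hsp90ab1, the constitutive cytosolic HSP90, was high on arrays 2074 (34540.4) and 2076 (37165), while the rest gave 13107 to 24141, an inner range of 2.28-fold. Its next probe set had 2.54-fold. Hsp90b1, the HSP90 of the endoplasmic reticulum, had 1.90-fold (1.21-fold without array 2074 or 2076) and the mitochondrial Trap1 1.45-fold, and both were again highest on that pair.

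Other HSP70 genes and small heat shock proteins were mixed in direction. Hspa5, the HSP70 of the endoplasmic reticulum, was lowest on arrays 2076 and 2074 and had an inner range of 1.501-fold, and Hspa13 was highest on that pair with 1.67-fold. Hspa4l had 2.45-fold with 1 array under the floor, and the mitochondrial Hspa9 had 1.24-fold, with 1.56-fold on its next probe set. Hspb6 had 2.51-fold and lay under the floor on array 2195, and Cryab, the alpha-B crystallin, had 1.29-fold. Of the J proteins, Dnajb9 of the endoplasmic reticulum had 2.27-fold, Dnajc5 2.07-fold (1.32-fold without array 2074 or 2076), Dnajb6 1.97-fold and Dnaja2, the narrowest, 1.19-fold. The next Dnajc5 probe set had 3.48-fold with 2 arrays under the floor.

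Of the 17 co-chaperones 7 reached at least 2-fold, against 29.9% of all measured genes. Serpinh1, the collagen chaperone HSP47, was high on arrays 2074 (34969) and 2076 (26759), while the rest gave 5293 to 11019. Its inner range was 3.92-fold, 1.61-fold without either of that pair, and its next probe set had only 1.54-fold with 1 array under the floor. Stub1, the ubiquitin ligase CHIP that works with HSP70, was also high there, at 8135 and 10390.5 against 1797 to 3982 elsewhere, with an inner range of 2.89-fold and 1.42-fold without array 2074 or 2076. Chordc1, an HSP90 co-chaperone, ran the other way, with 10007 on array 2074 and 14039 on 2076 against 29912 to 40899.5 elsewhere, an inner range of 2.75-fold and 1.29-fold without either array. Grpel1, the nucleotide exchange factor of mitochondrial HSP70, was the narrowest at 1.09-fold. In the cytosolic chaperonin TRiC 0 of 8 subunits reached 2-fold, with Cct4 at 1.68-fold, Cct2 at 1.65-fold, Cct3 at 1.33-fold and Tcp1 at 1.15-fold.

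**Figure D4:**
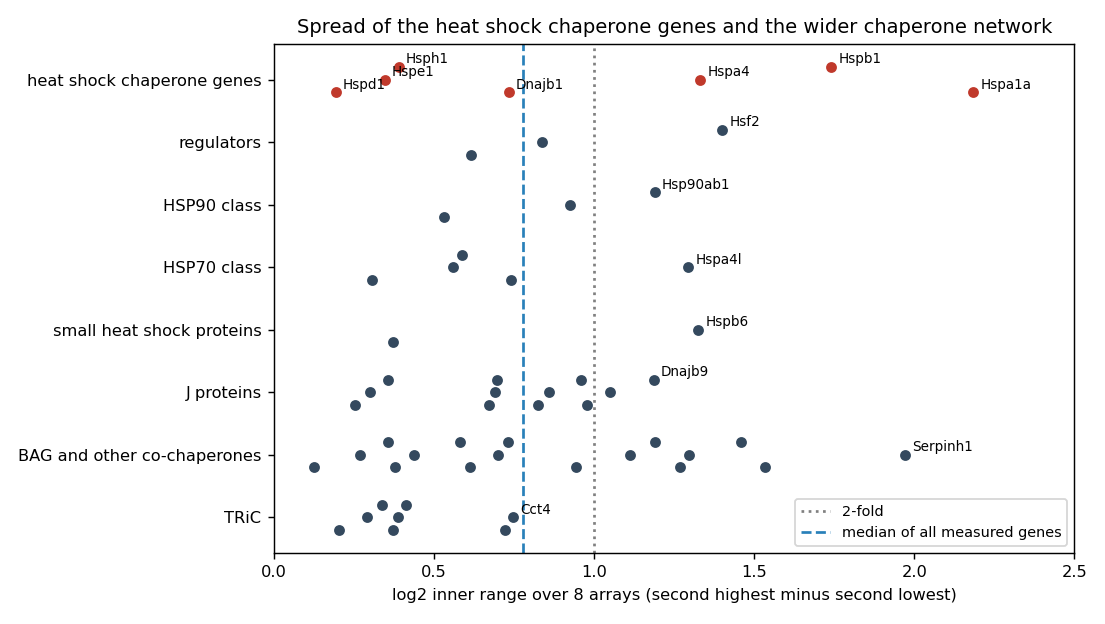
Log2 inner range over the 8 arrays for the 7 heat shock chaperone genes (red) and 50 further chaperone network genes by class (dark), with a dotted line at 2-fold and a dashed line at the median of all measured genes, 0.78. Hspa1a has the widest value shown, 2.18, Hspd1 is among the narrowest at 0.19, and vertical offsets within a class only separate points.

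Marker genes of the cell types in a follicle were read on the same arrays. Of 8 granulosa markers 7 were named and measured, and their summed signal ran from 326256 on array 2196 to 535513 on array 2195. Of the theca markers Cyp17a1, Tcf21 and Dcn lay under the floor on at least 4 arrays, and the summed signal of the 4 named ones ran from 585 on array 2199 to 2320.0 on array 2198. For macrophages and leukocytes Ptprc was under the floor on all arrays, and the sum of the 5 markers ran from 4777 to 7899. Of the 4 named endothelial markers Pecam1, Kdr and Vwf lay under the floor on at least 4 arrays, as did Zp3 and Bmp15 of the 4 named oocyte markers. Their summed signals, which thus hold values near background, ran from 658 to 2154 and from 631 to 2790.3. Erythroid markers summed to 48897 on array 2074 and to between 3797 and 13218 on the others. The part of cell composition in the chaperone values was not tested.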

How the data were processed

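Total RNA of granulosa cells was isolated by a column kit, biotin-labelled and run on 1 array per sample, per the labels. The authors deposited probe set signal intensity on a linear scale. The submitters' processing notes name MAS5 without a version. After trimming 2% at either end the mean was 1500.5 to 1500.6 on all arrays. MAS5 values are noisy at low signal, and precision is limited by having 8 arrays.

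Signals were log2-transformed and scaled to the common median of probe sets above the array median on all 8 arrays, and values under the 40th percentile of an array were set to it. Each gene was read from its brightest probe set. Probe sets with several gene names (436) or no listing (9831, controls among them) were left unnamed. Inner ranges have no test. Correlations used exact permutation tests, two-sided, with Benjamini-Hochberg adjustment over 10 relations, in Python 3.11.15 with numpy 2.4.6 and pandas 2.3.3. The range, permutation and adjustment steps were checked on known answers. Members and lists were chosen with earlier results of these data known. Named are all members, in each network class the 3 widest genes and the narrowest, the 5 genes most like Hspa1a, Fos and Egr1. Bag2, and the rank of Hspe1 by likeness to Hspd1, were added after their values were seen. Alternatives were other scalings, floors and filters, the mean of probe sets, the full range and leaving out arrays. No column other than those of the 8 arrays was in the table.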

Additional observations from a re-analysis of the deposited data

Results flagged for a closer look

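In 3 probe sets 1 array lay far from the other 7, with a gap to its neighbour, as a share of the whole log2 range, over Dixon's 95% critical value for 8 values, which chance passes in about 1 in 20 sets. Hspd1 gave 283341 on array 2195, where the gap was 0.694 of the range. Hspe1 gave 427621 on the same array, where the gap was 0.747 of the range. The dimmer Dnajb1 probe set gave 430 on array 2196, where the gap was 0.619 of the range, and the brighter Dnajb1 probe set did not stand apart there.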

How the results depend on the processing

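The count of chaperone genes at or above 2-fold was 3 of 7, against 29.9% of all measured genes. It stayed at 3 whichever array was left out, while the share of all measured genes fell to between 18.8 and 25.2%. Requiring genes on all 8 arrays kept 6 chaperone genes, of which 2 passed, against 19.3% of all genes so filtered. By the full range 5 of 7 passed, against 71.4% of all measured genes. The class difference in median log2 inner range, 0.89, fell to 0.26 by the full range. It also fell, to 0.39, when the strictest filter dropped Hspa1a and left 6 chaperone genes. The remaining alternatives gave 0.57 (arrays 2194 to 2199) to 1.03 (quantile normalization). In fold, the 16 alternatives other than the full range each moved the difference by less than 1.5 times. The count of relations passing, 1, was 0 after quantile normalization and 0 over arrays 2194 to 2199, and 0 to 1 with arrays left out, where fewer arrays also limit the p-value. Hspd1 with Hspe1 passed in 3 of those 8 omissions, without 2194, 2197 or 2199, and without 2198 the relation passing was Hspa1a with the Gapdh ratio. With arrays left out, the r of Hspa1a changed sign with Hspd1 (-0.42 to 0.51), Hspe1 (-0.62 to 0.37), Hspa4 (-0.23 to 0.39), Fos (-0.024 to 0.42), Egr1 (-0.31 to 0.16) and the Gapdh ratio (-0.23 to 0.93). With Dnajb1 it was -0.016 over arrays 2194 to 2199, rescaled among themselves. The wider network count of 13 was 30 by the full range, against 71.4% of all measured genes. Over arrays 2194 to 2199, rescaled among themselves, it was 2, against 12.0%. With arrays left out it was lowest without array 2074 (2, against 18.9%) or 2076 (3, against 18.8%). The other omissions gave 11 or 12, against 21.8 to 25.2%. Required above the median on all 8 arrays, Hspa1a was not measured. Moving Hsp90aa1 to the inducible class was not run, since it had no value. No paired analysis was possible because the labels give no groups.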
